A study of Mus musculus with 8 samples.

Results

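The light-strand mitochondrial tRNAs are the 8 mt-tRNA genes that lie on the minus strand of the mouse mitochondrial reference sequence, mt-Tq, mt-Ta, mt-Tn, mt-Tc, mt-Ty, mt-Ts1, mt-Te and mt-Tp. They were chosen by strand in the annotation and not by any measured value, although earlier results of these data were known when they were chosen. They were 8 of the 21 mt-tRNAs counted in both count tables of the study, out of 22 in the annotation, the other 13 being on the heavy strand (mt-Tl1 was not analysed here). The tables held 2707 features for the Ion Proton run and 2878 for the SOLiD run, and all 8 passed the filters on low values.

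Small RNAs were sequenced from mouse bone marrow-derived macrophages (BMDMs), primary macrophages grown out of bone marrow cells in medium conditioned by L929 cells, a fibroblast line whose medium supplies Macrophage-Colony Stimulating Factor (M-CSF). The methods give 10-week-old male C57BL/6J mice as the source, and the labels give no genetic modification for control or treated cells. Treated cells were kept for 36 h in a medium lacking M-CSF, a withdrawal which the study used to make macrophages undergo apoptosis, and control cells received no treatment. The Ion Proton run comprised 2 libraries per condition, described as biological replicates, and in the SOLiD run each condition had 1 library made from total RNA and 1 made from RNA of 25 to 40 nt cut from a gel. Whether the replicate cultures came from separate animals is not given in the sources used here, and p-values then measure the spread between these libraries. In cultures measured in bulk, more cells of a state, more RNA per cell and more fragments per tRNA cannot be told apart.

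Mitochondrial DNA is transcribed from both strands as long precursors in which tRNAs sit between the protein-coding and ribosomal RNAs. RNase P cuts these precursors at the 5′ end of each tRNA and the ELAC2 nuclease at its 3′ end, which frees the RNAs on either side. The light-strand tRNAs come from the transcript that starts at the light-strand promoter and otherwise carries a single messenger RNA, mt-Nd6. Each tRNA then brings its amino acid to the mitochondrial ribosome, where the proteins of the respiratory chain encoded in the organelle are made.

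The sequences are printed because each value below is the number of reads laid on them, and because neighbours on the same precursor differed in their change. Coordinates are on build GRCm38, and all 8 genes are on the minus strand. The sequences run 5′ to 3′ as the GENCODE transcripts give them, in DNA letters, and the capitals mark the anticodon. mt-Tq (chrM:3772-3842) is the tRNA for glutamine, mt-Ta (chrM:5018-5086) for alanine, mt-Tn (chrM:5089-5159) for asparagine, mt-Tc (chrM:5192-5257) for cysteine, mt-Ty (chrM:5260-5326) for tyrosine, mt-Ts1 (chrM:6870-6938) for serine, mt-Te (chrM:14071-14139) for glutamate and mt-Tp (chrM:15356-15422) for proline.
mt-Tq: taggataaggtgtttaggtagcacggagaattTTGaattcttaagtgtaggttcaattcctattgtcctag
mt-Ta: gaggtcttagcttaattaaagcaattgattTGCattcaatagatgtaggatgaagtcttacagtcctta
mt-Tn: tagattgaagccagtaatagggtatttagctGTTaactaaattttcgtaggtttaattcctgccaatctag
mt-Tc: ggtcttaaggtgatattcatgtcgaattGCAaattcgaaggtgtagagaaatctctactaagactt
mt-Ty: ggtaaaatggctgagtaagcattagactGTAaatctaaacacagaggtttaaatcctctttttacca
mt-Ts1: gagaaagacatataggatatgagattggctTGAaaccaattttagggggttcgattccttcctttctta
mt-Te: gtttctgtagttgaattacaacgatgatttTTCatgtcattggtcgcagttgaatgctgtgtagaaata
mt-Tp: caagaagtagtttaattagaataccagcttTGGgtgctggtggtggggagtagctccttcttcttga

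These tRNAs are short, from 66 to 71 nt, and are richer in G than the heavy-strand ones. The share of G was 17.9% to 29.9% (median 23.0%) in the 8 light-strand tRNAs and 7.14% to 18.8% (median 15.5%) in the 13 heavy-strand ones. mt-Tp, with 29.9%, had the highest share of G, and mt-Ty, with 17.9%, the lowest among the 8. Over a window of 15 nt, 0 of the other features listed for the Ion Proton run shared a stretch with any of the 8 on either strand. Reads of at least that length without a mismatch therefore could not be split among those features. Features listed only for the SOLiD run were not searched. A genome sequence was not used here, so that copies of mitochondrial DNA in the nuclear chromosomes were not searched. mt-Tq overlaps the heavy-strand mt-Ti by 3 nt at its 3′ end and mt-Ts1 overlaps the protein-coding mt-Co1 by 3 nt, and whether reads were counted by strand is not given in the sources used here.

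Depth and RNA quality were compared before the values. Reads on listed features numbered 6053130 to 7760142 in the Ion Proton libraries, 5772453 (control) and 12178454 (withdrawal) with SOLiD for total RNA, and 8910972 and 4039837 for RNA of 25 to 40 nt. The RNA integrity number was 8.4 to 8.9 in the Ion Proton libraries, 8.4 (control) and 7.5 (M-CSF withdrawal) for SOLiD total RNA, and 2.7 and 2.6 for the RNA cut from a gel. The mean share of reads on ribosomal RNA features went from 18.6% to 10.7% in the Ion Proton run, and the mean share on miRNAs went from 41.0% to 30.2%. The miRNA share in SOLiD total RNA was 82.2% in control cells and 41.3% without M-CSF. Nuclear tRNAs took 26.7% and 26.6% of reads in the control libraries of the Ion Proton run and 47.1% and 44.7% in the withdrawal libraries. Their share was 10.2% (control) and 42.2% (withdrawal) in SOLiD total RNA, and 8.81% and 41.4% in RNA of 25 to 40 nt. Scaled to miRNA reads in place of all reads, the log2 ratio of the summed level of the 8 tRNAs in the Ion Proton run was 4.04 instead of 3.60. The part of RNA integrity and of the ribosomal RNA and nuclear tRNA shares in the results was not tested. Myeloid miRNAs (4 of 6 listed in the SOLiD table, 6 of 6 in the Ion Proton table, among them miR-21a-5p, miR-146a-5p and miR-223-3p) summed to 51107 to 384727 per 1000000 reads in the 8 libraries. Most of this sum was miR-21a-5p in every library (42646 to 359445). miR-223-3p was at 66.9 to 96.5 per 1000000 reads in the Ion Proton libraries and 4473 to 11725 in the SOLiD ones. In the Ion Proton libraries, the listed miRNAs of other cell types were low, with 3.06 to 8.26 per 1000000 reads for erythroid cells (2 of 2 listed), 0 to 0.165 for liver (1 of 1), 0.418 to 4.60 for neurons (1 of 2) and 3.68 to 5.57 for fibroblasts (1 of 2, miR-199a-3p), while 0 of 3 muscle miRNAs and 0 of 1 endothelial miRNA were listed. In the SOLiD libraries of both conditions the same miRNAs were higher, at 2395 to 3991 per 1000000 reads for erythroid cells, mostly miR-451a, 52.7 to 89.6 for liver, 34.7 to 55.0 for neurons and 41.5 to 58.9 for miR-199a-3p (61.7 to 88.1 for 2 of 2 fibroblast miRNAs). Muscle miRNAs (2 of 3 listed) were at 224 to 421 and the endothelial one at 23.0 to 30.8 there. Their part in the SOLiD values was not tested.

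The first comparison asked how reads on the light-strand tRNAs differed between control BMDMs and BMDMs without M-CSF. In the Ion Proton run, all 8 rose without M-CSF in edgeR's quasi-likelihood test (Benjamini-Hochberg adjusted p under 0.05), against 15.7% of all 2029 features tested that rose and 8.97% that fell. Their median log2 fold change was 3.59, against 0.08 over all features tested. Summed over the 8, the level was 319 ± 3.37 counts per 1000000 reads on listed features (CPM) in control cells and 3863 ± 41.5 CPM without M-CSF (SD, n = 2 each). The rise ranged from 0.59 on the log2 scale for mt-Ty to 5.49 for mt-Tp.

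**Figure D1:**
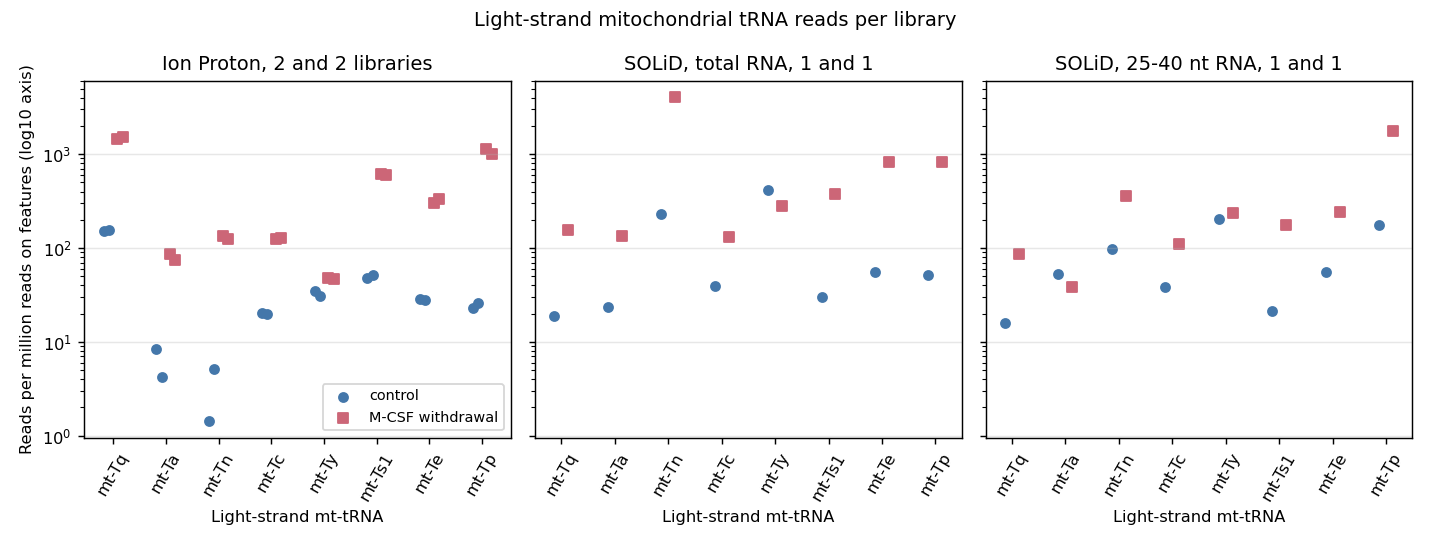
Reads per 1000000 reads on listed features (log10 axis) for each light-strand mt-tRNA, with 1 point per library, blue circles for control and red squares for M-CSF withdrawal, in the Ion Proton run, SOLiD total RNA and SOLiD RNA of 25 to 40 nt. The red squares lie above the blue circles except for mt-Ty in SOLiD total RNA (282 against 420) and mt-Ta in SOLiD RNA of 25 to 40 nt (38.9 against 52.3).

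mt-Tp, the proline tRNA, is the gene nearest the light-strand promoter among the 8. It had 22.9 and 26.0 CPM in the control libraries and 1129 and 998 CPM in the withdrawal libraries of the Ion Proton run. The groups were far apart, and mt-Tp was 45.0-fold higher (log2 fold change 5.49, SE 0.124, edgeR adjusted p = 0.000393). Among 852 features averaging at least 10 CPM, it had the largest log2 fold change. SOLiD total RNA held 51.1 reads per 1000000 (RPM) in control cells and 826 RPM without M-CSF, for a log2 ratio of 3.99 with no replicate. The heavy-strand mt-Tt (threonine), which abuts mt-Tp with 0 nt between them, went from 6.31 and 3.34 CPM to 27.9 and 38.5 CPM (log2 fold change 2.82, SE 0.354, edgeR adjusted p = 0.00895).

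mt-Te, the glutamate tRNA, lies just upstream of mt-Nd6 on the strand they share, with 0 nt between them. Its 28.5 and 28.1 CPM in control cells became 301 and 331 CPM without M-CSF. The control libraries differed little and lay well under the treated ones, for a log2 fold change of 3.53 (SE 0.107, edgeR adjusted p = 0.000688). The SOLiD values for total RNA were 55.3 RPM in control cells and 822 RPM after withdrawal (log2 ratio 3.87).

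mt-Ts1, the serine tRNA that reads UCN codons, lies on the opposite strand from the end of mt-Co1. Its values were 48.1 and 52.1 CPM in control cells and 614 and 599 CPM without M-CSF. This was a 12.6-fold rise with close replicates (log2 fold change 3.65, SE 0.0904, edgeR adjusted p = 0.000393). The heavy-strand mt-Td (aspartate) lies 3 nt away and had few reads in the Ion Proton run. Its control libraries held 13 and 0 reads and its treated ones 30 and 15, and it did not pass the test (edgeR adjusted p = 0.320). In SOLiD total RNA mt-Td went from 3.29 RPM (19 reads) to 145 RPM, with no replicate. That log2 ratio of 5.09 was the largest of the 2513 features compared. SOLiD sequencing of total RNA gave mt-Ts1 30.3 RPM in control cells and 379 RPM after withdrawal (log2 ratio 3.60).

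mt-Tq, the glutamine tRNA, was, per length, the most abundant of the 8 in both conditions of the Ion Proton run. It had 152 and 155 CPM in control cells and 1455 and 1532 CPM without M-CSF, a 10.1-fold rise (log2 fold change 3.34, SE 0.0843, edgeR adjusted p = 0.000393). Its neighbours on the heavy strand also rose, mt-Ti (isoleucine) with a log2 fold change of 2.36 (SE 0.316, edgeR adjusted p = 0.0110) and mt-Tm (methionine) with 3.64 (SE 0.0871, edgeR adjusted p = 0.000393). mt-Tm, at 247 and 268 CPM in control cells and 3191 and 2981 CPM after withdrawal, was per length the most abundant mt-tRNA after withdrawal and had the largest rise among the heavy-strand ones. By contrast mt-Tq was, in SOLiD total RNA, the lowest of the 8 per length in control cells, with 18.7 RPM, and had 156 RPM after withdrawal (log2 ratio 3.00).

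**Figure D2:**
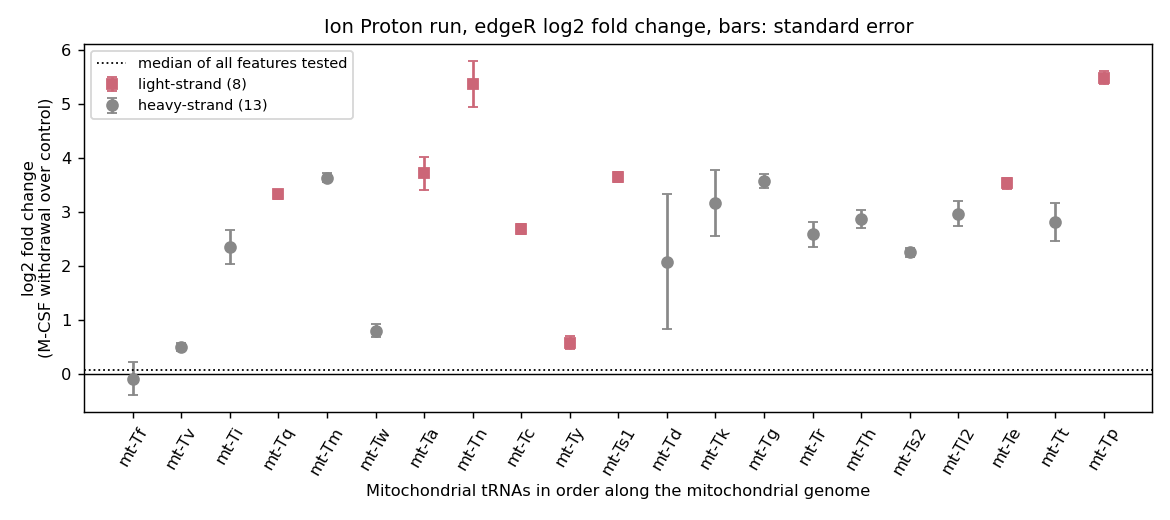
Log2 fold change (M-CSF withdrawal over control, edgeR, Ion Proton run, bars are standard errors) of the 21 mt-tRNAs in their order along the mitochondrial genome, red squares for the light strand and grey circles for the heavy strand, with the median of all features tested (0.08) dotted. mt-Tp (5.49) and mt-Tn (5.38) stand highest. mt-Ty (0.59) lies among the lowest although its neighbour mt-Tc (2.69) and mt-Tn, beyond mt-Tc, lie on the same precursor.

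mt-Ta, mt-Tn, mt-Tc and mt-Ty form a cluster between the heavy-strand mt-Tw (tryptophan) and mt-Co1, with 2 nt between neighbours except for 32 nt between mt-Tn and mt-Tc, where the origin of light-strand replication lies. Although the 4 tRNAs are cut from a single stretch of precursor, their rises in the Ion Proton run covered nearly the whole range of the 8. mt-Tn, the asparagine tRNA, had 1.42 and 5.15 CPM in control cells, from 11 and 37 reads, and 136 and 124 CPM without M-CSF. As a ratio, its control libraries differed more than those of any other member, and its log2 fold change of 5.38 had the largest error (SE 0.428, edgeR adjusted p = 0.00274). The range over the alternative fits was 4.59 to 6.56.

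mt-Ta, the alanine tRNA, had 8.38 and 4.18 CPM in control cells and 86.8 and 74.7 CPM without M-CSF. The groups did not overlap, although the control libraries rested on 65 and 30 reads, and the log2 fold change was 3.72 (SE 0.303, edgeR adjusted p = 0.00282). The heavy-strand mt-Tw, 1 nt away, rose less, from 20.5 and 21.7 CPM to 34.3 and 37.0 CPM (log2 fold change 0.81, SE 0.123, edgeR adjusted p = 0.0148). mt-Tc, the cysteine tRNA, had 20.5 and 19.8 CPM in control cells and 123 and 128 CPM after withdrawal, a 6.46-fold rise (log2 fold change 2.69, SE 0.0992, edgeR adjusted p = 0.000688).

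mt-Ty, the tyrosine tRNA, is the first of the cluster in the direction of light-strand transcription and changed least. It had 34.9 and 30.5 CPM in control cells and 47.7 and 47.1 CPM without M-CSF. The treated libraries were above both control libraries, but the rise was small (log2 fold change 0.59, SE 0.116, edgeR adjusted p = 0.0267). With DESeq2's Wald test the adjusted p was 0.180. By edgeR it was also above 0.05 when control replicate 2 (0.0575), withdrawal replicate 1 (0.131) or withdrawal replicate 2 (0.141) was left out. The other 7 tRNAs passed the threshold in all 12 alternative fits of the Ion Proton run.

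Relative to mt-Ty in the same library, the 3 other tRNAs of the cluster were below 1 in both control libraries and above 1 in both treated libraries of the Ion Proton run. For mt-Tn the ratio to mt-Ty was 0.0406 and 0.169 in the control libraries and 2.85 and 2.64 in the withdrawal libraries. For mt-Ta it was 0.240 and 0.137 in control cells and 1.82 and 1.59 after withdrawal, and for mt-Tc it was 0.587 and 0.648 and then 2.59 and 2.71. The control and treated libraries did not overlap in any of these 3 ratios. These ratios are a description and were not tested. In SOLiD total RNA the ratio of mt-Tn to mt-Ty was 0.551 in control cells and 14.4 after withdrawal, whereas those of mt-Ta (0.0557 and 0.473) and mt-Tc (0.0949 and 0.467) stayed below 1. In RNA of 25 to 40 nt the ratio of mt-Ta to mt-Ty was lower after withdrawal (0.255 and 0.165), while those of mt-Tn (0.472 and 1.53) and mt-Tc (0.187 and 0.464) were higher.

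The heavy-strand tRNAs and the nuclear tRNAs for the same amino acids were set beside the 8. Of the 13 heavy-strand tRNAs, 11 rose and 0 fell in the Ion Proton run by the same edgeR test, with a median log2 fold change of 2.59 and a range from -0.08 (mt-Tf, phenylalanine) to 3.64 (mt-Tm). Of 190 nuclear tRNA features for the 8 amino acids, 117 rose and 10 fell, with a median of 0.91. These nuclear features are copies of gene families that share reads, and their counts are not independent. By amino acid their median log2 fold change was 1.39 for cysteine (44 of 55 rose), 1.18 for proline (16 of 18), 0.94 for glutamate (14 of 21), 0.91 for asparagine (10 of 13), 0.81 for alanine (21 of 34), 0.49 for glutamine (11 of 16), 0.19 for serine (1 of 23 rose and 9 fell) and 0.18 for tyrosine (0 of 10 rose and 1 fell). Among the 8 mitochondrial tRNAs the one for tyrosine had the lowest value. Among these 8 nuclear groups tyrosine and serine were lowest and nearly equal. By contrast the light-strand serine tRNA mt-Ts1 had a log2 fold change of 3.65 and the heavy-strand one, mt-Ts2, had 2.26. No feature of mitochondrial ribosomal RNA was among those analysed.

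Of all mt-tRNA reads, the light-strand share was 19.0% and 20.2% in the control libraries of the Ion Proton run and 36.7% and 37.5% in the withdrawal libraries (means 19.6% ± 0.860 and 37.1% ± 0.535, SD, n = 2 each). The rise of 17.5 percentage points exceeded the spread between replicates, with non-overlapping groups. The share in SOLiD total RNA was 27.6% for control cells, with a 95% Wilson interval of 27.0% to 28.3%, and 30.4% (30.2% to 30.6%) after withdrawal, a smaller step. In SOLiD RNA of 25 to 40 nt it was 27.8% (27.2% to 28.4%) and 36.9% (36.4% to 37.5%). These intervals cover counting error only, since reads amplified by PCR are not independent molecules.

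**Figure D3:**
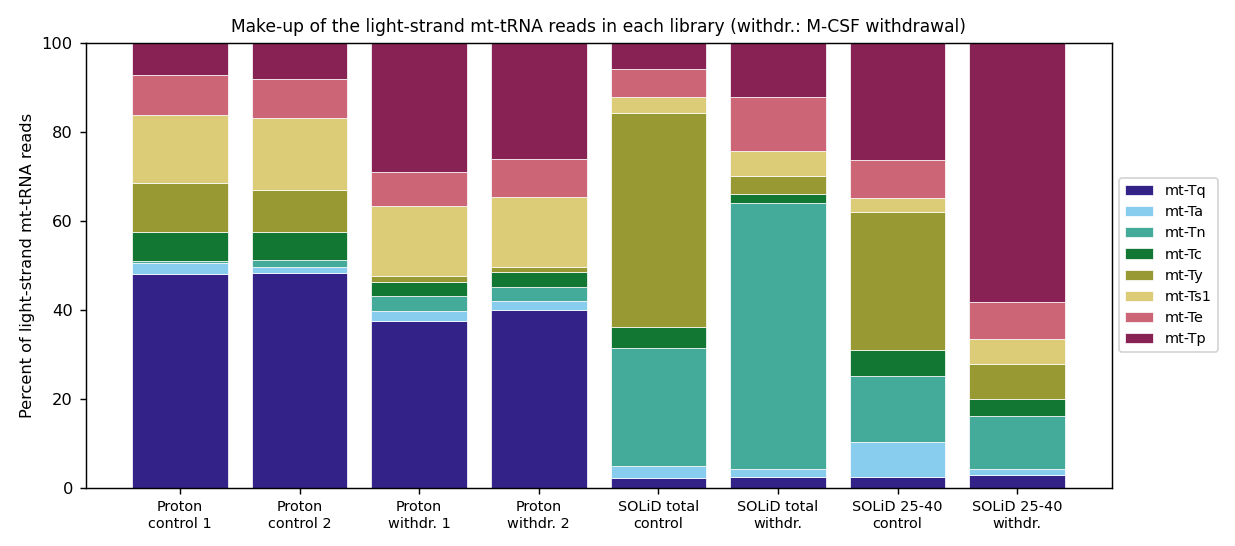
Percent of the light-strand mt-tRNA reads (y axis) taken by each of the 8 tRNAs, as stacked bars for each of the 8 libraries. mt-Tq is the largest part in the 4 Ion Proton libraries (48.1% in control cells and 38.7% without M-CSF, means), while mt-Ty (48.3%) and mt-Tn (59.7%) lead in SOLiD total RNA of control and treated cells and mt-Tp (58.4%) in the treated library of 25 to 40 nt.

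The make-up of the light-strand reads differed between control and treated cells. In the Ion Proton run the control and withdrawal libraries did not overlap for mt-Tp, mt-Ty, mt-Tq, mt-Tc, mt-Tn and, narrowly, mt-Te, but did for mt-Ta and mt-Ts1. mt-Tp went from 7.68% ± 0.607 to 27.5% ± 2.10 of these reads, while mt-Ty went from 10.3% ± 1.09 to 1.23% ± 0.00212 (SD, n = 2 each). mt-Tq went from 48.1% ± 0.289 to 38.7% ± 1.82 and mt-Tc from 6.32% ± 0.225 to 3.25% ± 0.113 (SD, n = 2 each). The share of mt-Ts1 was 15.7% ± 0.725 in control cells and 15.7% ± 0.0987 after withdrawal, and in the SOLiD run it was 3.49% and 5.59% in total RNA and 3.20% and 5.79% in RNA of 25 to 40 nt. In SOLiD total RNA mt-Ty went from 48.3% to 4.16% and mt-Tn from 26.6% to 59.7%.

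Per 100 nt of gene, the order of the levels in the control libraries of the Ion Proton run was mt-Tq (216 CPM), mt-Ts1 (72.6), mt-Ty (48.8), mt-Te (41.0), mt-Tp (36.6), mt-Tc (30.5), mt-Ta (9.10) and mt-Tn (4.63). Only the neighbours mt-Ta and mt-Tn overlapped between libraries in that order. After M-CSF withdrawal it was mt-Tq (2104 CPM per 100 nt), mt-Tp (1587), mt-Ts1 (879), mt-Te (458), mt-Tc (190), mt-Tn (183), mt-Ta (117) and mt-Ty (70.7), and mt-Tc and mt-Tn overlapped. mt-Ty thus moved from the third place to the last.

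SOLiD total RNA gave another order, and its library kit, platform and mapping also differed. Per 100 nt, mt-Ty (626 RPM) and mt-Tn (326 RPM) led in control cells and mt-Tq (26.4 RPM) came last, with an interval that overlapped that of mt-Ta (33.9 RPM). After M-CSF withdrawal mt-Tn (5698 RPM per 100 nt) was far above mt-Tp (1233) and mt-Te (1192), whose Wilson intervals overlapped, and mt-Ta (193) came last, its interval overlapping that of mt-Tc. Levels therefore could not be ordered across the runs, and changes within each run were compared instead.

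In SOLiD total RNA, 7 of the 8 light-strand tRNAs were over 2-fold higher without M-CSF, with 1 library per condition and no test. This compared with 24.9% of the 2513 features compared (9.27% were over 2-fold lower). Also over 2-fold higher were 11 of the 13 heavy-strand tRNAs and 115 of 189 nuclear tRNA features for the same amino acids. Among features at 10 RPM or more in both libraries, as all 8 were, 403 of 978 were over 2-fold higher. The median log2 ratio of RPM plus 1 of the 8 was 3.30, against 2.31 for the heavy-strand tRNAs. It was 0.18 for all features and 0.43 for those at 10 RPM or more in both libraries. The summed level was 870 RPM in control cells and 6776 RPM after withdrawal. mt-Tn went from 231 to 4046 RPM, the largest log2 ratio of the 8 (4.12, 95% counting interval 4.05 to 4.21). mt-Ta went from 23.4 to 133 RPM (log2 ratio 2.46) and mt-Tc from 39.8 to 132 RPM (1.70). mt-Ty was the exception, at 420 RPM in control cells and 282 RPM after withdrawal (log2 ratio -0.57, counting interval -0.65 to -0.50).

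The 6 total RNA libraries of both runs, 3 per condition, were then fitted together with run as a covariate, on log2 of CPM or RPM plus 1. By limma, 7 of the 8 rose (Benjamini-Hochberg adjusted p under 0.05), against 11.6% of the 1701 features tested that rose and 5.7% that fell. The median log2 fold change of the 8 was 3.38, against 2.57 for the heavy-strand tRNAs, of which 9 of 13 rose, and 0.17 for all features. mt-Tp had the largest log2 fold change of all 1701 features (4.92, SE 0.316, limma adjusted p = 0.00116) and mt-Tn the next (4.76, SE 0.409, limma adjusted p = 0.00268).

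mt-Ts1 (3.58, SE 0.164), mt-Te (3.58, SE 0.189) and mt-Tq (3.18, SE 0.162) had limma adjusted p-values of 0.000377, 0.000430 and 0.000430 in that fit. mt-Ta (3.19, SE 0.360) and mt-Tc (2.29, SE 0.253) each had a limma adjusted p of 0.00638. Without M-CSF withdrawal replicate 1, the limma adjusted p was 0.0723 for mt-Ta and 0.0730 for mt-Tc, and without replicate 2 it was 0.0617 for both. Without control replicate 2 that of mt-Tc was 0.0671. With fewer libraries the count of features that rose over the whole table fell from 198 to 15, 16 and 19 in these fits. mt-Ty did not pass in the fit of both runs (log2 fold change 0.16, SE 0.279, limma adjusted p = 0.702), and its sign turned when each library was centred on its median, in voom, in edgeR and without control replicate 2.

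**Figure D4:**
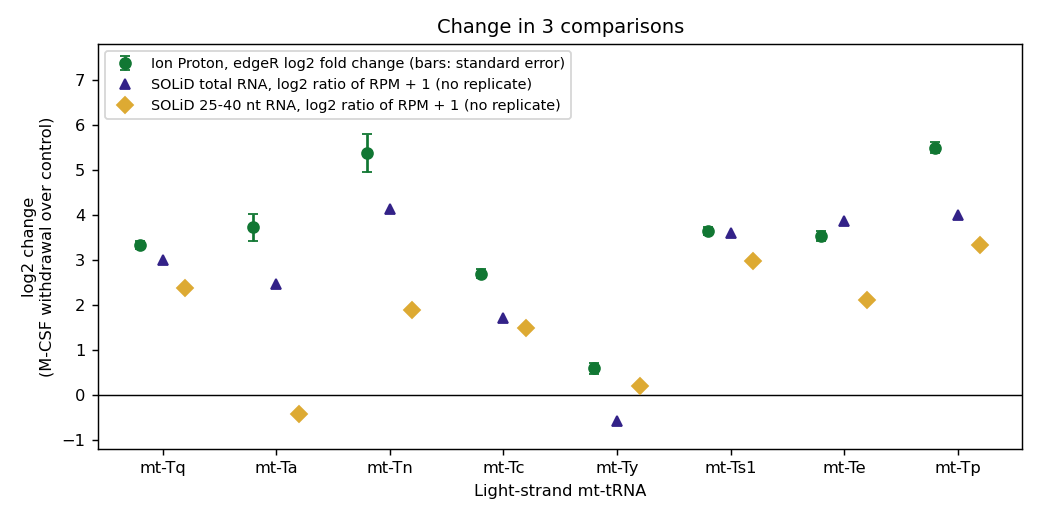
Log2 change (M-CSF withdrawal over control) of each light-strand mt-tRNA in the Ion Proton run (green circles, bars are standard errors), SOLiD total RNA (blue triangles) and SOLiD RNA of 25 to 40 nt (yellow diamonds), the last 2 with no replicate. Changes lie above 0 except for mt-Ty in SOLiD total RNA (-0.57) and mt-Ta in SOLiD RNA of 25 to 40 nt (-0.42).

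The size of the change was compared between the runs with the interaction of treatment and run in limma. The log2 change, taken with its sign, was lower in SOLiD total RNA for 3 of the 8. This compared with 5% of the 1701 features with a lower and 21% with a higher log2 change there. The 3 were mt-Tp (difference -1.40 on the log2 scale, SE 0.196, limma adjusted p = 0.00886), mt-Ty (-1.10, SE 0.195, limma adjusted p = 0.0184) and mt-Tc (-0.88, SE 0.185, limma adjusted p = 0.0276). For mt-Ty the direction itself differed, with a log2 ratio of -0.57 in SOLiD total RNA. The differences for mt-Ta (-1.09, SE 0.542) and mt-Tn (-0.96, SE 0.777) were of like size but had larger errors and did not pass. The SOLiD libraries have no replicate, so that the spread in this test comes from the Ion Proton libraries. Among the 13 heavy-strand tRNAs, 5 had a higher and 2 a lower log2 change in the SOLiD run by the same limma test.

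In RNA cut at 25 to 40 nt, 6 of the 8 were over 2-fold higher without M-CSF, against 32.1% of the 2214 features compared. Over 2-fold lower were 9.62% of these features, again with 1 library per condition. Also over 2-fold higher were 9 of the 13 heavy-strand tRNAs and 111 of 190 nuclear tRNA features for the same amino acids. Among features at 10 RPM or more in both libraries, as all 8 were, 431 of 903 were over 2-fold higher (median log2 ratio 0.90). The range cut lies below the 66 to 71 nt of the whole tRNAs, but the lengths of the reads were not examined. Reads on miRNAs took 87.4% of the control and 45.1% of the withdrawal library of this fraction. With each ratio centred on the median of features at 10 RPM or more in both libraries, 4 of the 8 were over 2-fold higher (mt-Tp, mt-Ts1, mt-Tq and mt-Te). The centred median was 1.10, mt-Ta was over 2-fold lower at -1.32, and mt-Ty was at -0.70. Without centring the median log2 ratio was 2.00, against 1.30 for the heavy-strand tRNAs and 0.48 for all features. mt-Tp was per length the most abundant of the 8 after withdrawal and had the largest log2 ratio, from 174 to 1753 RPM (3.33, counting interval 3.25 to 3.41). mt-Ts1 (21.1 and 174 RPM, log2 ratio 2.98), mt-Tq (15.9 and 86.9 RPM, 2.38), mt-Te (55.7 and 244 RPM, 2.11), mt-Tn (96.6 and 360 RPM, 1.89) and mt-Tc (38.3 and 110 RPM, 1.49) were also higher. mt-Ty had 205 RPM in control cells and 236 RPM after withdrawal (log2 ratio 0.20), and mt-Ta had 52.3 and 38.9 RPM (-0.42, counting interval -0.70 to -0.16).

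Set against total RNA of the same condition, mt-Tp was higher in RNA of 25 to 40 nt both in control cells (log2 ratio 1.75) and without M-CSF (1.08). mt-Ta was higher there in control cells (1.13) but lower after withdrawal (-1.75). mt-Tn was lower in both, at -1.25 and -3.49. mt-Tc differed little, at -0.06 in control cells and -0.26 after withdrawal. mt-Tn, the leading tRNA of treated cells in SOLiD total RNA with 4046 RPM, thus had 360 RPM in RNA of 25 to 40 nt, while mt-Tp had 826 and 1753 RPM.

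The features most like the light-strand tRNAs across the 8 libraries were sought among 719 features that are not mt-tRNAs, by Pearson's r of log2 of CPM or RPM plus 1, centred within each run, with the summed level of the 8. They were 3 nuclear leucine tRNAs, chr13.tRNA63-LeuAAG (r = 0.982), chr7.tRNA561-LeuAAG (r = 0.980) and chr14.tRNA709-LeuTAG (r = 0.973). These values share libraries and totals and are a description. The first had 33.6 and 29.5 CPM in control cells and 249 and 250.0 CPM without M-CSF in the Ion Proton run. Since leucine tRNA copies share reads, they are not separate cases.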

How the data were processed

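Small RNA libraries of BMDMs were grouped by the sample labels into control and M-CSF withdrawal, by run and by RNA fraction. Ion Proton reads were cleaned of adapters by the authors with cutadapt 1.2.1, who discarded those under 15 bases, mapped the rest to mm10 with bowtie2 2.2.4 in local mode, with up to 10 places per read, and deposited raw counts per feature of miRBase 21, UCSC tRNAs and Ensembl 75. For the SOLiD run, the authors mapped with LifeScope 2.5.1, merged files with Picard 1.38 and deposited reads per 1000000 reads on listed features (RPM). These RPM values were whole multiples of 1 read for 100% of values (tolerance 0.01 read), so that reads were recovered for counting intervals. With up to 10 places per read, reads of repeated genes can be counted at several features. Sample labels name small RNA and the methods total RNA as the Ion Proton extract. The methods' wording was kept.

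Members, neighbours and sequences were taken from GENCODE mouse M21 (GRCm38). The Ion Proton counts went into edgeR 4.0.16 (R 4.3.3), with the quasi-likelihood test and TMM factors, for features whose counts summed to 5 or more. Both runs were fitted with limma 3.58.1 (treatment and run, intensity trend) on log2 of the value plus 1, with at least 5 reads in each run. A log2 change with a pseudocount understates the change of low features. Benjamini-Hochberg adjustment covered every feature tested, and 0.05 was the threshold. SOLiD log2 ratios use a pseudocount of 1 and no test, and their 95% counting intervals are exact binomial ones on the recovered reads, without the pseudocount. Alternatives were other scalings, filters, pseudocounts and tests (DESeq2 1.42.0, voom), fits with a replicate block and fits lacking 1 Ion Proton library. Scripts were tested on simulated data. Python 3.11.15, pandas 2.3.3, numpy 2.4.6, scipy 1.17.1 and matplotlib 3.10.9 were used. Named features were the 8 members, the most abundant, highest, lowest and neighbouring heavy-strand mt-tRNAs, the heavy-strand serine tRNA mt-Ts2, and the 3 features most alike. The members and lists were chosen with earlier results of these data known. Replicate counts differed more than by sampling (chi-square over degrees of freedom 15.6 in control and 14.1 in M-CSF withdrawal), and each library was counted as 1 sample.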

Additional observations from a re-analysis of the deposited data

Results flagged for a closer look

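The change after M-CSF withdrawal differed between the runs for 3 of the 8 tRNAs in limma's interaction of treatment and run (Benjamini-Hochberg adjusted). All 3 had a lower log2 change in SOLiD total RNA, as did 5% of the 1701 features tested, while 21% had a higher one. Of the 13 heavy-strand tRNAs, 5 had a higher and 2 a lower log2 change there. The SOLiD minus Ion Proton log2 fold change was -1.40 for mt-Tp (adjusted p = 0.00886), -1.10 for mt-Ty (adjusted p = 0.0184) and -0.88 for mt-Tc (adjusted p = 0.0276), from 1 SOLiD library per condition. mt-Ty had a log2 ratio of -0.57 in SOLiD total RNA, opposite to its rise in both M-CSF withdrawal libraries of the Ion Proton run. Its log2 ratio in SOLiD RNA of 25 to 40 nt was 0.20, opposite to total RNA of the same run, and this difference was not tested. Centred on the median of features at 10 RPM or more in both libraries, it was -0.70 in RNA of 25 to 40 nt and also below 0 in total RNA. mt-Ta had a log2 ratio of -0.42 in RNA of 25 to 40 nt, opposite both to SOLiD total RNA (2.46) and to the Ion Proton run (3.72), and neither difference was tested.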

How the results depend on the processing

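In the Ion Proton run, 7 or 8 of the 8 tRNAs rose under all 12 alternatives (7 or 8 without any 1 library), mt-Ty being the one lost. Same-numbered Ion Proton libraries did not deviate together (correlation 0.00562, 2 pairs), so the numbers were not taken as pairs. With the replicate block 7 of 8 rose (mt-Ty log2 fold change 0.59, edgeR adjusted p = 0.0643), and over all features 233 rose and 126 fell instead of 318 and 182. These were 236 and 241 with DESeq2, 299 and 255 with its size factors, and 413 and 80 with factors from miRNAs, which moved the median of all features from 0.08 to 0.39. Without M-CSF withdrawal replicate 1 they were 199 and 100, and without replicate 2 they were 199 and 113.

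For both runs, 7 of the 8 rose, and 5 to 7 when any 1 Ion Proton library was left out. The features that rose over the whole table numbered 15 to 77 in those fits instead of 198 (fell, 0 to 4 instead of 97). SOLiD libraries were not left out. Centring each library on its median gave 178 and 230, voom 219 and 178, and scaling to miRNA reads 296 and 2. mt-Ty turned sign, to -0.15 on centring, -0.39 in voom, -0.13 in edgeR and -0.00010 without control replicate 2 (-0.00010 to 0.108 without any 1 Ion Proton library). The cause was not tested. Between runs, 3 or 4 of the 8 differed, the fourth being mt-Tq with a pseudocount of 5 (-0.47, limma adjusted p = 0.0487) and on centring (-0.75, limma adjusted p = 0.0245). A pseudocount of 5 gave 0.035 for mt-Tn and -0.033 for mt-Ts1, and centring gave -0.45 for mt-Ts1 and -0.034 for mt-Te, none past the threshold, instead of -0.96, 0.03 and 0.44. Over all features 474 then had a higher and 171 a lower log2 change in the SOLiD run with a pseudocount of 5, and 246 and 244 with centring, instead of 358 and 85.

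The log2 ratio of summed levels, 3.60, was 3.65 with TMM factors and 4.04 per miRNA read. The median ratio in SOLiD total RNA, 3.30, was 3.10 with a pseudocount of 5, 2.87 when centred and 4.30 per miRNA read, and that of 25 to 40 nt RNA, 2.00, was 1.10 when centred and 2.95 per miRNA read. The rise in light-strand share in the Ion Proton run was 16.9 to 18.1 percentage points without any 1 of its libraries. mt-Tn in control cells rests on 11 and 37 reads, which limits the precision of its fold change.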
